A study of Mus musculus with 31 samples.

Results

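Transcripts of 10 genes of the lysosomal degradation system were followed in kidneys from 31 male B6 mice. The genes were chosen by symbol, and all 10 were found, each once, among the 55487 genes of the deposited table. They encode the proteases cathepsin D (Ctsd), cathepsin S (Ctss), cathepsin A (Ctsa), cathepsin B (Ctsb), cathepsin L (Ctsl) and cathepsin Z (Ctsz), the membrane proteins Lamp1 and Lamp2, the transcription factor Tfeb and the autophagy receptor Sqstm1, also called p62. All 10 passed the filter on low counts.

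Lysosomes are acidic organelles that break down proteins, lipids and sugars taken up from outside the cell or delivered by autophagy. In the kidney the proximal tubule reabsorbs filtered proteins by endocytosis and depends heavily on them. TFEB is a transcription factor that binds a short element in the promoters of many lysosomal and autophagy genes, and it is held in the cytoplasm when the kinase mTOR, on the lysosome surface, phosphorylates it, so that its activity need not follow its own transcript.

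The mice formed 4 groups: 8 HET mice given cisplatin, 8 WT mice given cisplatin, 7 HET mice given PBS and 8 WT mice given PBS. HET is the labels' term for the Nbl1 genotype other than wild type (WT), and no label or design text used here states the kind of allele or the cisplatin dose. Cisplatin is a platinum drug that damages DNA and the kidney tubule, and phosphate-buffered saline (PBS) was the control treatment. Treatment lasted 4 weeks from the age of 8 weeks and kidneys were collected 3 days later, at an age given as 11 weeks, which does not add up. Each library carries its own animal number and was treated as 1 mouse, and the library numbers used below only name libraries within a group.

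Total counts per library, in units of 1e6, were 26.87 to 31.92 in HET cisplatin, 24.65 to 28.86 in WT cisplatin, 29.23 to 36.7 in HET PBS and 29.85 to 37.3 in WT PBS. Proximal tubule markers were abundant in every library, as fits the kidney label. Nbl1, the gene named by the genotype, ranged from 0.861 to 13.9 CPM (counts per 1e6 after TMM scaling, which sets libraries to a common level over most genes) in HET cisplatin, against 10.7 to 26.2 in WT cisplatin. Under PBS it ranged from 0.106 to 4.2 CPM in HET, against 3.71 to 7.9 in WT. In 5 libraries Nbl1 did not sit with the rest of its group: it was at 1.08 CPM or less in HET cisplatin 3 and 4 and HET PBS 1 and 6, and at 3.71 CPM, within the HET PBS range, in WT PBS 6. WT cisplatin 6, at 10.7 CPM, likewise lay within the HET cisplatin range but was not counted among these 5. The next WT cisplatin library was at 18.1 CPM. Of the cisplatin libraries, 2 lay nearest to the PBS libraries on the first principal component. One was HET cisplatin 6, in which 11 macrophage markers summed to 51.46 CPM against 165.9 to 253.5 in the other 7 libraries of its group. The other was WT cisplatin 6, in which 12 proximal tubule markers summed to 10110 CPM, the highest sum among the cisplatin libraries. Results that changed without these libraries are given both ways.

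Promoter windows from RefSeq (GRCm38.p6, 250 bases before to 50 after a gene's start) were found for 9 of the 10 genes, all but Ctsb. Those of 4 genes are printed: the clearest rise (Ctsd), a second rise (Ctss) and 2 genes lower with TMM scaling (Ctsa and Lamp1). The fall of Lamp1 depended on the scaling. Each window of the 9 genes was searched on both strands for CACGTG, the E-box core, for TCACGTGA, the core of the element that TFEB binds, which contains CACGTG, and for TGACNNNGC, the core of the element that the oxidative stress factor NRF2 binds. Capitals mark every match, and position −1 is the base just before the start.
Ctsd, chr7:142387778-142388077, minus strand: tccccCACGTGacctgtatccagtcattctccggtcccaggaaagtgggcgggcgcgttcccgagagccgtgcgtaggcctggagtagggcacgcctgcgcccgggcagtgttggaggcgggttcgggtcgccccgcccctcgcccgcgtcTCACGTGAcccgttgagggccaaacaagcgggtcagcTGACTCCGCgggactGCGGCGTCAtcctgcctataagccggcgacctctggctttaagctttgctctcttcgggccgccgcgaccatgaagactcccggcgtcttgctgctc
Ctss, chr3:95526536-95526835, plus strand: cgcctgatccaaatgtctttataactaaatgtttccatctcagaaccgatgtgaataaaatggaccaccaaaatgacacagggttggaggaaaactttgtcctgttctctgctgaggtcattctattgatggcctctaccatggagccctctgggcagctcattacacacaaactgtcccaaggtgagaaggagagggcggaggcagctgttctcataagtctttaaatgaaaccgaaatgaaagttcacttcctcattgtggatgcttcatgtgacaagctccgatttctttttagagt
Ctsa, second of 2 windows, chr2:164833523-164833822, plus strand: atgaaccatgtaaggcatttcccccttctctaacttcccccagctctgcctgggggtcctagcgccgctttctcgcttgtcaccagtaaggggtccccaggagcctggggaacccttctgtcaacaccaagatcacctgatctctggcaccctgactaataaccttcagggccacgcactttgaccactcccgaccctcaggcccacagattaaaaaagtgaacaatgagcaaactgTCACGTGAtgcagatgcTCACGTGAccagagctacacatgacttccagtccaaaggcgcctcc
Lamp1, chr8:13158911-13159210, plus strand: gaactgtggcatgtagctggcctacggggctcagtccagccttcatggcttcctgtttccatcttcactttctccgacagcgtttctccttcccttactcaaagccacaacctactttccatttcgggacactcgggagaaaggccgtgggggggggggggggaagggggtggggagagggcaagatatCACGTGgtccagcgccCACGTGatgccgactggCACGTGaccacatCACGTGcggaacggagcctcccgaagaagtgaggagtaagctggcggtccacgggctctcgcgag
The Ctsd window holds CACGTG at positions −245 and −98, the second of these within TCACGTGA, and 2 copies of TGACNNNGC at −62 and −47. The Ctsa window holds TCACGTGA at −13 and 5, and the Lamp1 window holds CACGTG at −61, −45, −28 and −15. The Ctss window holds none of the 3 motifs. The first Ctsa window, at the annotated gene start, and the Lamp2 window hold none either, and neither is printed. The fall of Lamp2 passed under either scaling. CACGTG occurred in windows of 4 of the 9 genes (Ctsa, Ctsd, Ctsl and Lamp1), against 8.09% of 27025 genes with a window. TCACGTGA occurred in 2 of the 9 (Ctsa and Ctsd), against 1.12% of genes, and TGACNNNGC in 2 of the 9 (Ctsd and Ctsz), against 14.0% of genes. Genes with these letters both rose and fell below, and a match is a description of sequence, not a bound site.

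Cisplatin against PBS was compared within each genotype. The data show opposite movements inside this set: Ctsd was 2.58-fold its PBS level in HET kidneys and 3.12-fold in WT kidneys, and Ctss also rose, while Ctsa and Lamp2 fell to about 0.6 of their PBS level. With TMM scaling and edgeR's quasi-likelihood test (Benjamini-Hochberg adjusted p under 0.05 over 19268 genes), 2 of the 10 genes were higher and 4 lower in HET, and 2 were higher and 6 lower in WT. Of all tested genes, 59% passed in HET, 31% higher and 28% lower, and 63.2% passed in WT, 33.6% higher and 29.6% lower, so calls for 6 of 10 genes in HET and 8 of 10 in WT lie near the background and say nothing particular about this set. The median log2 fold change of the 10 genes was −0.16 in HET and −0.23 in WT, beside 0.06 over all tested genes in each genotype.

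Those directions depend in part on how libraries were brought to one scale. When counts were divided by library totals instead, the median of all tested genes moved to 0.46 in HET and 0.45 in WT, and the share of higher genes among those that passed went to 83.3% against 52.6% with TMM in HET, and to 80.5% against 53.1% with TMM in WT. On library totals 5 of the 10 genes were higher and 2 lower in HET, beside 74.7% of all tested genes called, 62.2% higher and 12.5% lower, and 5 were higher and 3 lower in WT, beside 76.3% called, 61.4% higher and 14.9% lower. With limma on log2(TPM + 1) 5 were higher and 2 lower in each genotype, beside 77% of all tested genes called in HET, 66.1% higher and 10.9% lower, and 77.5% in WT, 64.2% higher and 13.2% lower. Ctsd and Ctss were higher and Ctsa and Lamp2 lower, past the threshold, in both genotypes under either scaling. Ctsb, Ctsl, Ctsz, Tfeb, Lamp1 and Sqstm1 lay nearer to the middle of all genes, and their calls or signs changed with the scaling as given for each gene. All HET cisplatin animals come from a single run of animal numbers, which only some animals of the remaining groups share. Within that run alone, the log2 fold changes in HET and in WT were 1.35 and 1.60 for Ctsd, 0.91 and 1.14 for Ctss, −0.70 and −0.79 for Ctsa, and −0.73 and −0.75 for Lamp2, and all 8 passed.

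**Figure D1:**
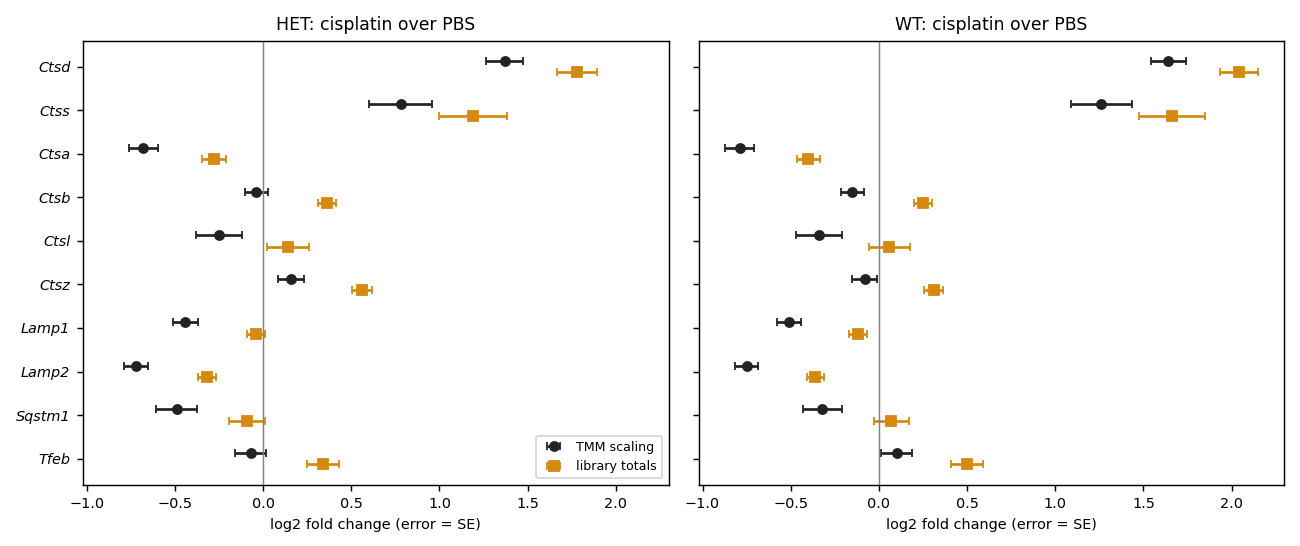
Log2 fold change of cisplatin over PBS for the 10 genes in HET (left) and WT (right) kidneys, with TMM scaling (circles) and with library totals (squares); bars are standard errors. Ctsd and Ctss lie right of 0 and Ctsa and Lamp2 left of 0 under both scalings, while Ctsb, Ctsl and Tfeb in HET and Ctsb, Ctsl, Ctsz and Sqstm1 in WT lie on opposite sides of 0.

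Ctsd (chr7:142375911-142388038 of GRCm38, minus strand) encodes an aspartic protease of the lysosome. In HET kidneys it had 859 CPM in the lowest, 1318 in the median and 1507 in the highest cisplatin library, against 468, 500 and 518 in PBS libraries. In WT kidneys it had 1041, 1508 and 2090 CPM under cisplatin, against 444, 467 and 517 under PBS. Every cisplatin library lay above every PBS library of its genotype, and the lowest library in each cisplatin group was library 6. The log2 fold change was 1.37 (SE 0.104, edgeR adjusted p = 1.26e-12) in HET and 1.64 (SE 0.0998, edgeR adjusted p = 6.08e-15) in WT. Without both libraries 6 it was 1.44 in HET and 1.71 in WT. The count of Ctsd was not a whole number in 27 libraries, so some of its reads were shared out between features, and Gm49369 is annotated over it on the same strand. In bulk tissue a change in a transcript's share can come from fewer or more cells of a type or from a different amount of RNA per cell, and these cannot be told apart.

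Ctss (chr3:95526786-95556403, plus strand) encodes a cysteine protease that is typical of antigen-presenting cells, where it trims the invariant chain of MHC class II. HET kidneys had 7.81, 24 and 29.4 CPM in the lowest, median and highest cisplatin library, against 10.8, 12 and 16.6 in PBS libraries. WT kidneys had 20.5, 26.9 and 42.8 CPM under cisplatin, against 9.69, 11.7 and 15.3 under PBS. The WT groups did not overlap. In HET 7 of 8 cisplatin libraries lay above all PBS libraries, and library 6 lay below all of them. The log2 fold change was 0.78 (SE 0.179, edgeR adjusted p = 0.000388) in HET and 1.26 (SE 0.173, edgeR adjusted p = 1.82e-07) in WT, and 0.91 in HET without library 6 (edgeR adjusted p = 8.13e-07).

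Macrophage markers moved with Ctss. Of 11 markers, 9 were higher and 1 lower in HET, and 10 were higher and 1 lower in WT, the second split also being that of both genotypes on library totals. Their summed level was 51.5 to 254 CPM in HET cisplatin, against 106 to 142 in HET PBS, and 152 to 343 in WT cisplatin, against 106 to 129 in WT PBS. No macrophage marker was at 0. Neutrophil markers were low, summing to 3.74 to 6.53 CPM in HET cisplatin, against 3.61 to 21.3 in HET PBS, and to 3.95 to 8.67 in WT cisplatin, against 3.2 to 17.7 in WT PBS. What part the number of macrophages had in the Ctss result was not tested beyond the correlation given further on.

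Ctsa (chr2:164832873-164841032, plus strand) encodes a serine carboxypeptidase that also protects beta-galactosidase and neuraminidase inside lysosomes. HET kidneys had 93.6, 114 and 157 CPM in the lowest, median and highest cisplatin library, against 180, 193 and 199 in PBS libraries. WT kidneys had 87.8, 112 and 140 CPM under cisplatin, against 181, 191 and 202 under PBS. The groups did not overlap in either genotype, and Ctsa fell with a log2 fold change of −0.68 (SE 0.0823, edgeR adjusted p = 2.25e-08) in HET and −0.79 (SE 0.08, edgeR adjusted p = 5.45e-10) in WT. On library totals the falls were smaller, −0.28 in HET and −0.40 in WT, and passed. Neurl2 and Pltp overlap Ctsa on the opposite strand, and no source used here says whether counting was by strand.

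Ctsb (chr14:63122462-63145923, plus strand) encodes an abundant cysteine protease. HET kidneys had 397, 491 and 519 CPM in the lowest, median and highest cisplatin library, against 455, 483 and 498 under PBS, and WT kidneys had 358, 419 and 531 CPM under cisplatin, against 439, 472 and 528 under PBS. The groups overlapped in both genotypes. The log2 fold change was −0.04 (SE 0.0652, edgeR adjusted p = 0.633) in HET and −0.15 (SE 0.0631, edgeR adjusted p = 0.0431) in WT. The WT call rests on the setting: the adjusted p was 0.112 without WT cisplatin 4, the threshold was also missed in each of 8 other fits that left out 1 library (WT cisplatin 2, 5, 7 or 8, or WT PBS 2, 4, 5 or 6), and on library totals Ctsb was higher, 0.36 in HET and 0.25 in WT (edgeR adjusted p = 4.39e-05 in WT). Fdft1 overlaps it on the opposite strand.

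Ctsl (chr13:64359337-64370890, minus strand) encodes the cysteine protease cathepsin L. HET kidneys had 279, 340 and 745 CPM in the lowest, median and highest cisplatin library, against 427, 463 and 518 under PBS, and WT kidneys had 306, 337 and 397 CPM under cisplatin, against 400, 435 and 455 under PBS. In WT every cisplatin library lay below every PBS library. In HET 6 of 8 cisplatin libraries did, and library 6, at 745 CPM, lay above all PBS libraries. Ctsl was lower in WT with TMM scaling, with a log2 fold change of −0.34 (SE 0.128, edgeR adjusted p = 0.0232), and at 0.06 on library totals. In HET it was −0.25 (SE 0.132, edgeR adjusted p = 0.1), −0.45 without library 6 (edgeR adjusted p = 1.2e-05) and 0.14 on library totals with all libraries. Ctsl counts were fractional in all 31 libraries, and Gm49230, a processed pseudogene, lies on the same strand within its locus, so the split of its reads is uncertain.

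Ctsz (chr2:174427493-174439039, minus strand) encodes a cysteine carboxypeptidase. HET kidneys had 74.2, 88.6 and 105 CPM in the lowest, median and highest cisplatin library, against 74.3, 79.3 and 82.1 under PBS, and WT kidneys had 64.2, 74.0 and 90.2 CPM under cisplatin, against 75.0, 79.7 and 85.5 under PBS. The groups overlapped in both genotypes, and the cisplatin libraries were spread more widely than the PBS libraries. With TMM scaling the log2 fold change was 0.16 (SE 0.0734, edgeR adjusted p = 0.0556) in HET and −0.08 (SE 0.0708, edgeR adjusted p = 0.31) in WT. On library totals it was 0.56 in HET (edgeR adjusted p = 4.26e-10) and 0.31 in WT (edgeR adjusted p = 9.28e-06). The HET value also passed without HET cisplatin 1, 2 or 8, or WT cisplatin 3 or 4, at log2 fold changes of 0.16 to 0.20. Nelfcd overlaps Ctsz on the opposite strand.

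**Figure D2:**
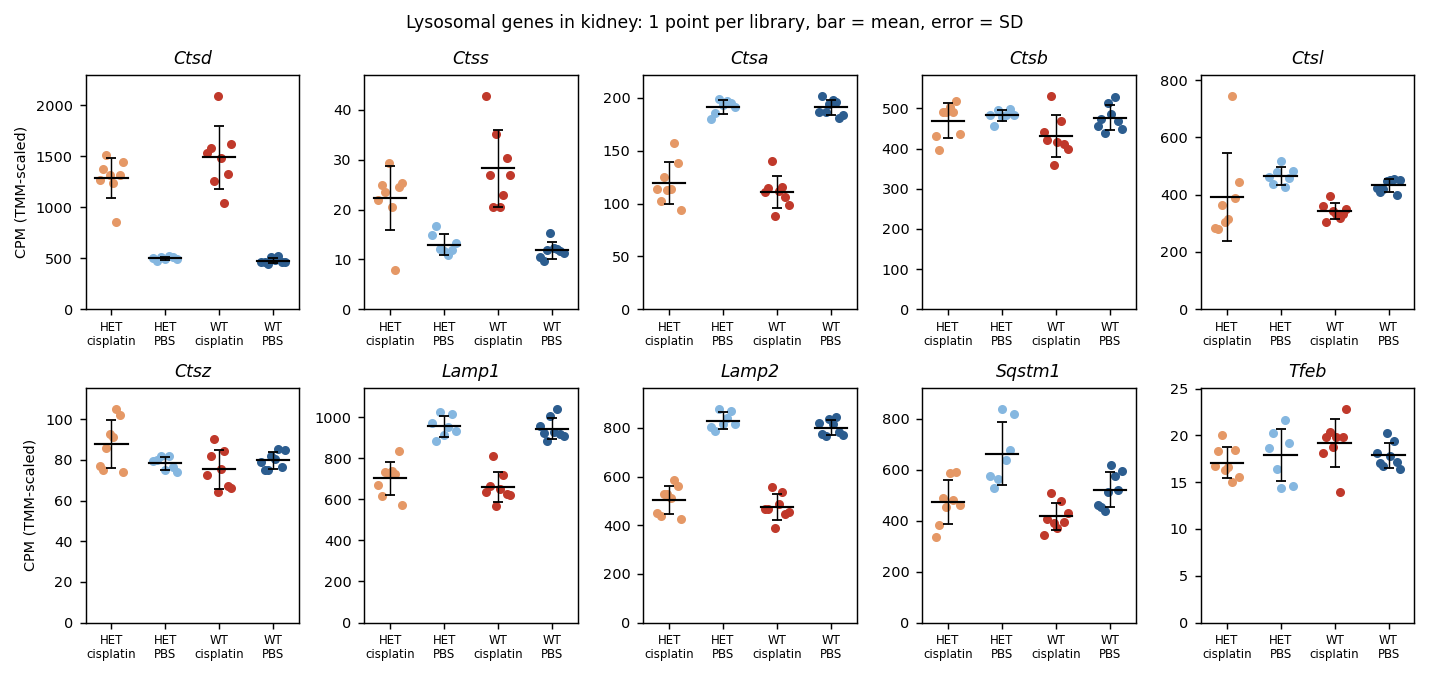
CPM with TMM scaling of the 10 genes, 1 panel a gene and 1 point a library, in HET cisplatin (8), HET PBS (7), WT cisplatin (8) and WT PBS (8); lines are means and bars are SD. Ctsd under cisplatin lies between 859 and 2090 CPM, above all PBS libraries, Ctsa and Lamp2 under cisplatin lie below all PBS libraries, and 1 HET cisplatin library is low for Ctss and high for Ctsl.

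Among the 6 proteases of this set, the make-up of the transcripts changed toward Ctsd. Per transcript length (TPM), Ctsd held 53.7% ± 7.99 (SD, n = 8) of the summed level of the 6 proteases in HET cisplatin, against 28.4% ± 0.849 (SD, n = 7) in HET PBS, and 59.3% ± 6.11 (SD, n = 8) in WT cisplatin, against 28.1% ± 0.446 (SD, n = 8) in WT PBS. The cisplatin shares, 34.9% to 60.4% in HET and 50.8% to 69.5% in WT, lay above all PBS shares. The two-sided exact permutation p was 0.000311 in HET and 0.000155 in WT, in each case the smallest the design allows. Only the share of Ctsd was tested, the gene with the largest rise in these same data, so this p adds no separate evidence. The Ctsd share is a ratio within a library and does not depend on how libraries are scaled to each other. Its size does depend on which proteases are summed. Napsa, another lysosomal peptidase outside the sum, averaged 489 TPM in HET cisplatin, against 666 in HET PBS. In WT it averaged 470 TPM under cisplatin, against 652 under PBS, so under PBS it was above Ctsd. Lgmn, also outside the sum, averaged 236 against 181 TPM in HET and 220 against 180 TPM in WT. The Ctsl share averaged 19.1% in HET cisplatin, against 31.1% in HET PBS, and 16.1% in WT cisplatin, against 29.9% in WT PBS. In HET cisplatin the Ctsl share ranged from 14.8% to 35.6%. Ctss remained the smallest part of the sum, at 1.57% in HET cisplatin, against 1.25% in HET PBS, and 1.91% in WT cisplatin, against 1.17% in WT PBS. The summed level of the 6 proteases was 1043 ± 46.5 TPM (SD, n = 8) in HET cisplatin, against 550 ± 32.4 (SD, n = 7) in HET PBS, and 1084 ± 108 (SD, n = 8) in WT cisplatin, against 542 ± 17.5 (SD, n = 8) in WT PBS, a comparison that carries the upward shift of most genes on the TPM scale.

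**Figure D3:**
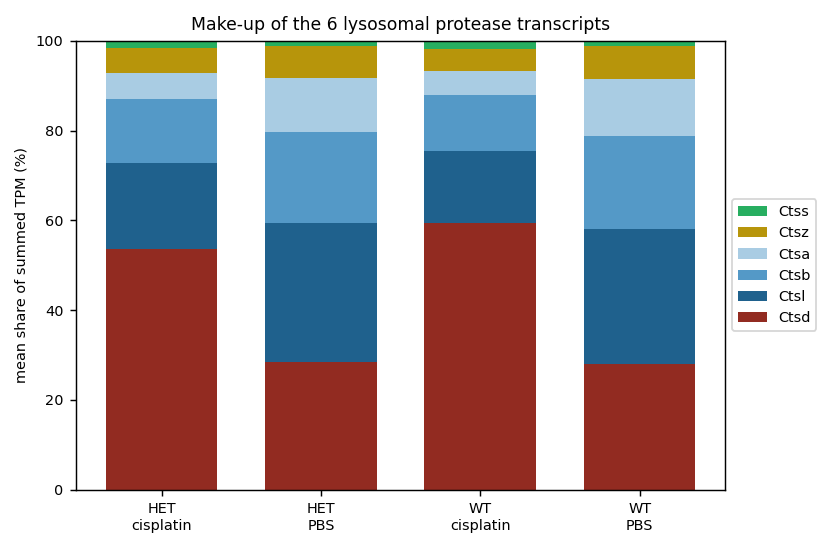
Mean share of each protease in the summed TPM of the 6 proteases, in percent, for HET cisplatin, HET PBS, WT cisplatin and WT PBS. The Ctsd part of the bar is 53.7% and 59.3% in the HET and WT cisplatin groups, against 28.4% and 28.1% in the HET and WT PBS groups.

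The order of levels per transcript length changed with treatment. Under PBS Lamp1 was first, with mean levels of 283 ± 14.2 TPM (SD, n = 7) in HET and 286 ± 11.4 TPM (SD, n = 8) in WT, followed by Lamp2 at 233 and 230 TPM. Ctsd ranked 5 at 156 ± 5.83 TPM in HET and 152 ± 5.36 TPM in WT, its libraries overlapping those of Ctsl just above it. Under cisplatin Ctsd was first, with 562 ± 97.3 TPM in HET and 648 ± 126 TPM in WT (SD, n = 8 each), and its libraries did not overlap those of Lamp1, the next gene, at 289 TPM in HET and 273 TPM in WT. Sqstm1, Lamp2 and Ctsl followed under cisplatin at 219, 197 and 198 TPM in HET and 195, 189 and 173 TPM in WT, each overlapping the gene above. Without HET cisplatin 6 the HET cisplatin means were 193 TPM for Lamp2 and 177 TPM for Ctsl. The lowest levels were those of Ctss, at 16.5 TPM in HET cisplatin and 20.9 TPM in WT cisplatin, against 6.89 in HET PBS and 6.37 in WT PBS, and of Tfeb, at 9.17 TPM in HET cisplatin and 10.8 TPM in WT cisplatin, against 6.62 in HET PBS and 6.89 in WT PBS.

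Lamp1 and Lamp2 encode the most abundant glycoproteins of the lysosomal membrane, and Lamp2 also takes part in autophagosome fusion and in chaperone-mediated autophagy. Lamp2 (chrX:38401357-38456454, minus strand) had 424, 519 and 584 CPM in the lowest, median and highest HET cisplatin library, against 787, 816 and 877 in HET PBS, and 389, 468 and 558 CPM in WT cisplatin, against 765, 801 and 846 in WT PBS. The groups were far apart in both genotypes. Lamp2 fell with a log2 fold change of −0.72 (SE 0.0674, edgeR adjusted p = 1.21e-10) in HET and −0.75 (SE 0.0655, edgeR adjusted p = 1.82e-11) in WT, and with −0.32 and −0.36 on library totals, both past the threshold.

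Lamp1 (chr8:13159161-13175338, plus strand) had 573, 727 and 836 CPM in HET cisplatin, against 884, 951 and 1023 in HET PBS, and 568, 643 and 810 CPM in WT cisplatin, against 882, 925 and 1039 in WT PBS. The groups did not overlap on this scale. The log2 fold change was −0.44 (SE 0.0692, edgeR adjusted p = 1.94e-06) in HET and −0.51 (SE 0.0671, edgeR adjusted p = 7.21e-08) in WT, whereas on library totals it was −0.04 in HET (edgeR adjusted p = 0.468) and −0.12 in WT (edgeR adjusted p = 0.033). The fall of Lamp1 therefore passed in HET with TMM scaling and not with library totals, while that of Lamp2 passed with both. With limma on log2(TPM + 1) Lamp1 passed in neither genotype, at 0.02 in HET (limma adjusted p = 0.71) and −0.07 in WT (limma adjusted p = 0.26). Grtp1 overlaps Lamp1 on the opposite strand.

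Tfeb (chr17:47737030-47792419, plus strand) was a low transcript with no called change with TMM scaling. It had 15.0, 16.6 and 20 CPM in the lowest, median and highest HET cisplatin library, against 14.4, 18.6 and 21.6 in HET PBS, and 13.9, 19.8 and 22.8 CPM in WT cisplatin, against 16.4, 17.5 and 20.3 in WT PBS. All groups overlapped. The log2 fold change was −0.07 (SE 0.089, edgeR adjusted p = 0.545) in HET and 0.10 (SE 0.086, edgeR adjusted p = 0.319) in WT, and on library totals 0.34 in HET (edgeR adjusted p = 0.00152) and 0.50 in WT (edgeR adjusted p = 9.75e-06). Set against the median of all tested genes on library totals, Tfeb stood at −0.12 in HET and 0.04 in WT, so by counts its transcript moved about as the middle gene did. With limma on log2(TPM + 1) it rose by 0.42 in HET (limma adjusted p = 8.36e-05) and by 0.57 in WT (limma adjusted p = 5.71e-07). On that scale it stood 0.05 above the median in HET and 0.21 above it in WT.

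Sqstm1 (chr11:50199366-50210827, minus strand) encodes p62, which carries ubiquitinated cargo into autophagosomes and binds KEAP1, the inhibitor of NRF2. It had 337, 472 and 589 CPM in the lowest, median and highest HET cisplatin library, against 526, 639 and 837 in HET PBS, and 345, 402 and 509 CPM in WT cisplatin, against 436, 515 and 617.5 in WT PBS. In each genotype 6 of 8 cisplatin libraries lay below all PBS libraries. With TMM scaling Sqstm1 fell with a log2 fold change of −0.49 (SE 0.115, edgeR adjusted p = 0.000538) in HET and −0.32 (SE 0.111, edgeR adjusted p = 0.0125) in WT, but on library totals it was −0.09 in HET (edgeR adjusted p = 0.426) and 0.07 in WT (edgeR adjusted p = 0.522). Mrnip overlaps Sqstm1 on the opposite strand.

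The genes around this set were described from lists, with TMM counts first and counts on library totals after them, since many signs turned. Over all tested genes the share higher and the share lower were 31% and 28% in HET and 33.6% and 29.6% in WT with TMM, and 62.2% and 12.5% in HET and 61.4% and 14.9% in WT on library totals, and each list count is to be read beside these. Of 12 other lysosomal peptidases, 2 were higher and 7 lower in HET, and 3 higher and 7 lower in WT, against 4 and 5 in HET and 5 and 6 in WT on library totals. Ctsh, an aminopeptidase, fell by 0.99 on the log2 scale in HET and by 1.01 in WT, and Dpp7, a dipeptidyl peptidase, fell by 1.81 and 1.97. Ctsc, the cathepsin that activates the granule proteases of immune cells, rose by 0.57 in HET and by 0.96 in WT. Of 22 glycosidases and sulfatases, 6 were higher and 13 lower in HET, and 4 higher and 14 lower in WT, against 9 and 9 in each genotype on library totals. Of 12 lipid enzymes and activators, 3 were higher and 8 lower in each genotype, against 5 and 7 on library totals, and Galc, galactosylceramidase, fell by 1.06 in HET and by 1.13 in WT. Dpp7, Ctsh and Galc were also lower, past the threshold, on library totals.

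The proton pump, the regulators of Tfeb and autophagy genes gave counts that turned with the scaling, as did the shares over all tested genes (31% higher and 28% lower in HET and 33.6% and 29.6% in WT with TMM, 62.2% and 12.5% in HET and 61.4% and 14.9% in WT on library totals). Of 15 widely expressed subunits of the vacuolar proton pump, which acidifies the lysosome, none was higher and 13 were lower in HET, and 1 was higher and 12 lower in WT, against 5 and 5 in each genotype on library totals. Atp6v1a fell by 0.71 on the log2 scale in HET and by 0.70 in WT. Of 23 relatives and upstream regulators of Tfeb, 1 was higher and 15 lower in HET, and 2 higher and 12 lower in WT, against 12 and 3 in HET and 12 and 5 in WT on library totals. Mtor, the kinase that restrains TFEB, fell by 1.31 in HET and by 1.23 in WT, and passed on library totals too, where it was −0.84 in WT. Tfe3, a relative of Tfeb, rose with TMM by 0.44 in HET and by 0.38 in WT. Relatives and regulators are mixed in this list, so its counts give no single direction for TFEB activity. Of 23 autophagy genes, 2 were higher and 17 lower in HET, and 4 higher and 16 lower in WT, against 9 and 6 in HET and 10 and 6 in WT on library totals. Gabarapl1, an ATG8 family protein, fell by 1.64 in HET and by 1.42 in WT. Of 13 other lysosomal membrane proteins, 2 were higher and 4 lower in HET, and 2 higher and 5 lower in WT, against 10 and 2 in HET and 9 and 1 in WT on library totals. Of 9 genes that sort enzymes to lysosomes, 2 were higher and 5 lower in HET, and 1 higher and 5 lower in WT, against 6 and 1 in each genotype on library totals.

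Inhibitors of cathepsins, galectins and NRF2 targets were mostly higher under either scaling, beside 31% higher over all tested genes in HET and 33.6% in WT with TMM, and 62.2% in HET and 61.4% in WT on library totals. Of 5 tested inhibitors, 4 were higher and 1 lower in each genotype, against 5 and 0 on library totals. Cstb, which binds cysteine cathepsins, rose by 1.82 on the log2 scale in HET and by 1.83 in WT, and Serpinb6a, a serpin, rose by 1.62 and 1.68. Cst3, a cystatin as Cstb is, was the 1 lower gene with TMM, at −0.14 in HET and −0.10 in WT. Serpinb1a and Serpina3n, also serpins, were higher. Which cathepsins each inhibitor acts on was not examined, so the count does not speak for inhibitors of the proteases of this set. Of 7 galectins and repair factors that gather at damaged lysosomes, all 7 were higher in each genotype under both scalings. Their median log2 fold change with TMM was 0.38 in HET and 0.29 in WT, beside 0.06 over all tested genes in each genotype. On library totals it was 0.79 in HET and 0.68 in WT, beside 0.46 and 0.45. The largest rise of the 7 was that of Lgals3, galectin-3, at 2.47 in HET and 2.81 in WT with TMM. Lgals3 is also widely used as a marker of macrophages and injured tubules. Of 9 partners and targets of KEAP1 and NRF2, 6 were higher and 2 lower in HET, and 6 higher and 1 lower in WT, against 7 and 1 in each genotype on library totals. Nqo1 rose by 1.80 in HET and by 1.76 in WT with TMM. Not every listed target rose: Gclm fell by 0.65 in HET and by 0.62 in WT, and Hmox1 passed in neither genotype. Sqstm1, itself a known NRF2 target, did not rise with TMM scaling in either genotype.

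**Figure D4:**
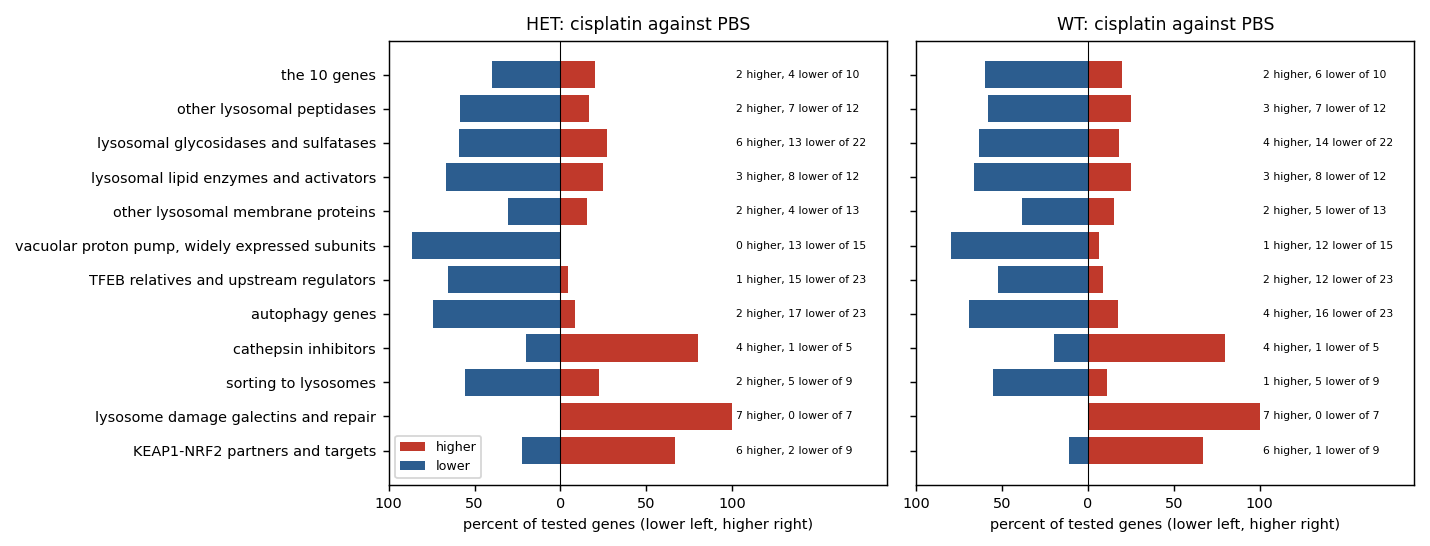
Share of the tested genes of each list, in percent, that passed as higher (right of 0) or lower (left of 0) in cisplatin against PBS, with TMM scaling, in HET (left panel) and WT (right panel) kidneys; the counts stand at the right of each row. The 7 galectins and repair factors are all higher, and 13 of 15 proton pump subunits in HET and 12 of 15 in WT are lower, a balance that becomes 5 higher and 5 lower on library totals.

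Tubule markers moved strongly in the same libraries. All 12 proximal tubule markers were lower in each genotype under both scalings, summing to 1906 to 9479 CPM in HET cisplatin, against 25066 to 28313 in HET PBS, and to 2229 to 10113 in WT cisplatin, against 23726 to 26611 in WT PBS. All 10 markers of injured tubule were higher, summing to 2990 to 7510 CPM in HET cisplatin, against 795 to 983 in HET PBS, and to 5862 to 7527 in WT cisplatin, against 647 to 983 in WT PBS. Mitochondrial transcripts took 3.12% to 5.12% of counts in HET cisplatin, against 7.96% to 8.52% in HET PBS, and 2.53% to 4.98% in WT cisplatin, against 8.08% to 8.96% in WT PBS. Malat1, a nuclear noncoding RNA, took 2.38% to 4.25% in HET cisplatin, against 1.45% to 1.80% in HET PBS, and 2.33% to 4.52% in WT cisplatin, against 1.43% to 1.82% in WT PBS. The part of these markers and shares in the cisplatin results of the 10 genes was not tested across treatments, because cisplatin and PBS libraries do not overlap in any of them.

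Within the 16 cisplatin libraries, each gene was compared with 2 marker scores, the mean log2 CPM of the macrophage markers and that of the proximal tubule markers, after centring on genotype. This gave 20 relations, tested by permutation within genotype with Benjamini-Hochberg adjustment, and 9 passed 0.05. The share of all tested genes that follow these scores was not computed, so the count says nothing particular about this set. The points share library and scaling. Higher proximal tubule scores went with higher Lamp2 (Pearson r = 0.90, permutation adjusted p = 0.0001, Spearman rho = 0.91), Lamp1 (r = 0.83, permutation adjusted p = 0.00115, rho = 0.90), Ctsa (r = 0.82, permutation adjusted p = 0.00116, rho = 0.81), Ctsz (r = 0.82, permutation adjusted p = 0.0002, rho = 0.89) and Ctsb (r = 0.77, permutation adjusted p = 0.00437, rho = 0.84). They went with lower Ctsd (r = −0.80, permutation adjusted p = 0.00437, rho = −0.78). These 6 relations passed as well without the 2 libraries farthest from the median score, where r was 0.84 for Lamp2, 0.71 for Lamp1, 0.70 for Ctsa, 0.82 for Ctsz, 0.74 for Ctsb and −0.78 for Ctsd (n = 14, permutation test). So among cisplatin kidneys Ctsd was generally higher where proximal tubule marker RNA was lower, and Lamp1, Lamp2, Ctsa, Ctsb and Ctsz were generally higher where it was higher.

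Ctss followed the macrophage score (r = 0.96, permutation adjusted p = 0.0001, rho = 0.93), and r was 0.86 without the 2 farthest libraries and 0.90 without HET cisplatin 6. For this relation and for Lamp2 with the proximal tubule score the raw permutation p was 1e-05, the smallest that 100000 resamples can give. Ctsd also passed with that score (r = 0.65, permutation adjusted p = 0.0424, rho = 0.55), as did Ctsa in the other direction (r = −0.60, permutation adjusted p = 0.0424, rho = −0.40), but both relations rest on a few libraries: without the 2 farthest, r was 0.35 for Ctsd and −0.42 for Ctsa, and without HET cisplatin 6 alone it was 0.34 for Ctsd and −0.34 for Ctsa. For Ctsl an r of −0.82 (permutation adjusted p = 0.0588) stood beside a rho of −0.27 and an r of −0.31 without the 2 farthest libraries, so it rests on them. Tfeb had r = −0.28 with the proximal tubule score (permutation adjusted p = 0.401) and −0.73 without the 2 farthest libraries (permutation adjusted p = 0.0232). Ctss had r = −0.52 with the proximal tubule score (permutation adjusted p = 0.0813), which did not pass, beside rho = −0.64 (permutation adjusted p = 0.0248), which did. By Pearson r Sqstm1 passed with neither score.

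**Figure D5:**
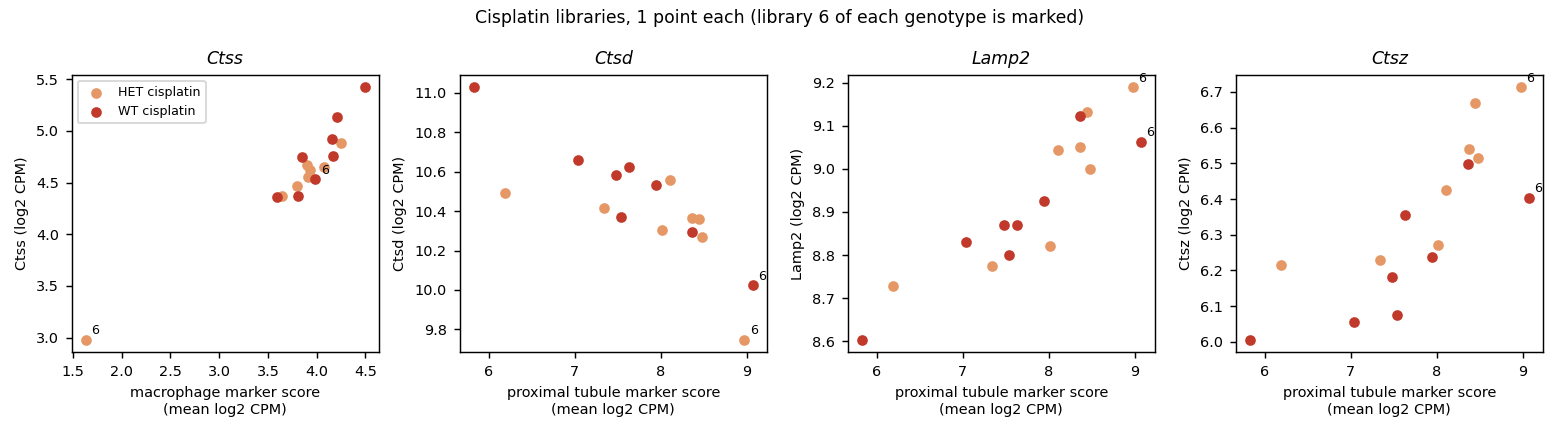
Log2 CPM of Ctss against the macrophage marker score, and of Ctsd, Ctsz and Lamp2 against the proximal tubule marker score, for the 8 HET and 8 WT cisplatin libraries, with library 6 of each genotype marked. Ctss rises with its score (r = 0.96), Ctsd falls with the tubule score (r = −0.80), and Lamp2 (r = 0.90) and Ctsz (r = 0.82) rise with it.

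The 10 genes did not vary as 1 block. After centring on the 4 group means, over 31 libraries and as a description only, Lamp1 and Lamp2 went together (r = 0.90), as did Ctsb with Lamp1 (r = 0.90) and with Lamp2 (r = 0.88), and Ctsa with Lamp2 (r = 0.88). For Ctsd with Ctss r was 0.65 and rho 0.49, and for Ctsd with Ctsa r was −0.63 and rho only −0.21. Among all tested genes, the 2 most like Ctss were Pld4 (r = 0.90) and C1qa (r = 0.89), the second being a complement gene on the macrophage list. Those most like Ctsd were Capns1, the small calpain subunit, and Bcam, each at r = 0.91, and those most like Lamp2 were Gpx1, a glutathione peroxidase (r = 0.95), and 4833439L19Rik (r = 0.94). Those most like Ctsl were Ggact (r = 0.89) and Rpl3l (r = 0.88), and those most like Tfeb were Trim8 (r = 0.80) and Sipa1l3 (r = 0.76). The genes most like Sqstm1 were Agfg2 (r = 0.85) and Retreg1, a receptor for autophagy of the endoplasmic reticulum (r = 0.82). For Ctsa they were Tmem8 and Bckdha (r = 0.94 each), for Ctsz Akr1a1 and Mcfd2 (r = 0.90 each), for Lamp1 Pebp1 (r = 0.93) and Man1a (r = 0.91), and for Ctsb they were Lamp1 and Lamp2. Spearman rho for these 20 pairs was 0.65 to 0.91.

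HET against WT was compared under each treatment, and the difference between the HET and WT cisplatin responses was tested as an interaction. None of the 10 genes passed in any of these with edgeR's quasi-likelihood test, beside 0.00519% of all tested genes for HET against WT under cisplatin and 0% for HET against WT under PBS and for the interaction. Nbl1 itself did not pass either, since no tested gene was called lower in HET under cisplatin and none was called under PBS. It averaged 7.34 CPM in HET cisplatin, against 20.6 in WT cisplatin, and 2.72 in HET PBS, against 6.37 in WT PBS. At an unadjusted p under 0.05 there were 2 of the 10 genes under cisplatin, 1 under PBS and 1 in the interaction, beside 5.53%, 5.02% and 5.6% of all tested genes. Ctsz averaged 87.9 ± 11.9 CPM (SD, n = 8) in HET cisplatin and 75.3 ± 9.46 CPM (SD, n = 8) in WT cisplatin, a log2 difference of 0.22 (SE 0.0708, edgeR adjusted p = 0.874), with an interaction of 0.25 (SE 0.102, edgeR adjusted p = 0.824). Ctsd was lower in HET than in WT under cisplatin by a log2 difference of −0.21 (SE 0.0973, edgeR adjusted p = 0.886), with an interaction of −0.28 (SE 0.14, edgeR adjusted p = 0.901). Sqstm1 was at 526 to 837 CPM in HET PBS, against 436 to 617.5 CPM in WT PBS, a log2 difference of 0.35 (SE 0.115, edgeR adjusted p = 0.756). For Ctss the interaction was −0.48 (SE 0.246, edgeR adjusted p = 0.909). These standard errors leave room for differences of the sizes listed, so they do not show that the genotypes responded alike. The count stayed at 0 in every alternative run. Those included the fit without the 5 libraries whose Nbl1 level stood apart, which kept WT cisplatin 6, and the fit without both libraries 6.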

How the data were processed

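The deposited table holds 3 values a library: expected counts that the authors estimated per gene and did not normalize (12.52% of them not whole, rounded here), deposited TPM values scaled by gene length and library, and deposited FPKM values, which were not used. The submitters' processing notes name the tools fastp, STAR and featureCounts; they name GRCm38 and mm10 as builds. No source used here states versions, the strand setting or which tool gave the fractional counts. No 2 libraries were identical.

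Rounded counts were tested with edgeR 4.0.16 in R 4.3.3 (TMM scaling, filterByExpr by group, 1 quasi-likelihood fit with 4 group means over 31 libraries, Benjamini-Hochberg adjustment over 19268 genes, threshold 0.05). The procedure was also run on simulated data with balanced changes in a small part of the genes. That setting does not test how calls depend on scaling when most genes shift. CPM are TMM-scaled counts. Log2 CPM used a prior count of 2. Replicates share no labelled pairing. Library scores, correlations and exact permutation tests used numpy 2.4.6, scipy 1.17.1 and pandas 2.3.3, with 100000 resamples for each correlation. Gene positions are from GENCODE M21.

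The 10 genes, the other lists and the marker lists were chosen with earlier results of these data known. Named genes are the 10, Nbl1, up to 3 genes of each list with the smallest p for cisplatin against PBS in WT (only some of these are printed), and the 2 genes most like each of the 10. Alternatives were DESeq2 1.42.0, limma 3.58.1 (voom, and log2(TPM + 1)), RLE scaling, library totals, other filters, compared groups alone, the animal number run of the HET cisplatin mice alone or as a covariate, and leaving out libraries.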

Additional observations from a re-analysis of the deposited data

Results flagged for a closer look

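In 40 groups of CPM values (10 genes in 4 groups), 4 held a library whose gap to the nearest other one was large for the range of its group by Dixon's criterion, which chance alone meets in about 1 group in 20. HET cisplatin 6 accounts for 3 of them: it had the lowest Ctsd of its group at 859 CPM, the lowest Ctss at 7.81 CPM and the highest Ctsl at 745 CPM. That library also had the lowest macrophage marker sum of all 31, 51.46 CPM, and an injured tubule marker sum of 2990 CPM, the lowest among the cisplatin libraries. WT PBS 4 had the highest Ctss of its group at 15.3 CPM, and its macrophage marker sum of 128.5 CPM was the highest among the WT PBS libraries.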

How the results depend on the processing

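Calls for Ctsd, Ctss, Ctsa and Lamp2 kept their direction and passed in both genotypes under every alternative run. Scaling moved the counts most: on library totals 5 genes were higher and 2 lower in HET, and 5 higher and 3 lower in WT, and with limma on log2(TPM + 1) 5 were higher and 2 lower in each genotype. Log2 fold changes that turned round on library totals were, in HET, Ctsb 0.36, Ctsl 0.14 and Tfeb 0.34, and in WT, Ctsb 0.25, Ctsl 0.06, Ctsz 0.31 and Sqstm1 0.07. With log2(TPM + 1) they were, in HET, Ctsb 0.41, Ctsl 0.16, Lamp1 0.02, Tfeb 0.42 and Sqstm1 0, and in WT, Ctsb 0.24, Ctsl 0.09, Ctsz 0.34 and Sqstm1 0.14. The median of all tested genes was 0.46 in HET and 0.45 in WT on library totals, and 0.37 and 0.36 with log2(TPM + 1); what lies behind this shift was not tested.

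In the animal number run of the HET cisplatin mice alone, the WT calls of Ctsb (adjusted p = 0.143) and Ctsl (adjusted p = 0.136) were lost in edgeR. With limma voom Ctsl passed in HET (−0.32, adjusted p = 0.0264). Leaving out 1 library at a time gave 6 to 7 called genes in HET and 7 to 8 in WT, and 7 to 11 relations with marker scores past the threshold. Leaving out HET cisplatin 6 and WT cisplatin 6 together, an alternative chosen after seeing the data, changed 1 call: Ctsl passed in HET. The WT call of Ctsb was also lost with no low-count filter, a stricter filter, the compared groups alone and without the 5 libraries whose Nbl1 stood apart. The stricter filter, a mean CPM of at least 1, also gained Ctsz in HET (0.18, edgeR adjusted p = 0.0276), and log2(TPM + 1) lost Lamp1 in WT (−0.07, limma adjusted p = 0.26). Genotype counts were 0 throughout. No paired analysis was possible because the library numbers only name libraries within a group. Tfeb and Ctss had the fewest counts of the 10 genes, and fractional counts limit Ctsl, Lamp2 and Ctsd.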
